A study of Mus musculus with 2 samples.

Results

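Chemokine ligands and receptors comprised 51 of the 30920 genes that carried a symbol on the array: every symbol made of Ccl, Cxcl, Ccr or Cxcr and a number, with Cx3cl1 added. They were 20 CC ligands, 13 CXC ligands, the CX3C ligand, 11 CC receptors and 6 CXC receptors, and each was read by a single probe set. Their levels were compared between 1 male C57BL/6 mouse labelled control and 1 male C57BL/6 mouse labelled cuprizone, both with cerebellum as the labelled tissue; neither label names an age, a transgene or pooling. Cuprizone binds copper, and feeding it to mice causes loss of oligodendrocytes and of myelin. The treatment note gives a diet of 0.2% cuprizone for 6 weeks but stands with both samples, so the treatment label alone separates the groups, and the title of the cuprizone sample holds a tag, CPZ-5, that the labels do not explain. Each group had 1 array, so differences have no replicate error and no test, and describe these arrays only.

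Chemokines are small secreted proteins that guide cell migration. They are named by the spacing of their first conserved cysteines (CC, CXC, CX3C) and act on receptors that couple to inhibitory G proteins. In the brain, Cx3cl1 is made mainly by neurons and read by Cx3cr1 on microglia, Cxcl12 is made constitutively by vessels, meninges and some neurons, and the ligands Ccl2, Ccl3, Ccl4 and Cxcl10 are induced in reactive glia. In bulk tissue, fewer cells of a type and less RNA per cell cannot be told apart.

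Values are log2 RMA expression, a scale on which a difference of 1 is 2-fold. Probe sets differ in their affinity for their targets, so a level is not set against that of another gene. To mark genes near background, the 1138 olfactory receptor genes (symbols starting Olfr), which brain tissue barely transcribes, served as a yardstick: the top of their central 95% was 4.66 for control and 4.74 for cuprizone, and their full range ran from 0.77 to 6.01 and from 0.87 to 5.77. A gene above the upper end of that central 95% is called over the bound, and any other is called within the background. All differences are cuprizone minus control, and where a pair of levels is given the control array comes first. Where the dimmer value lay within the background, the difference is given as "at least" the gap between the other value and the bound of the dimmer array.

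The tissue label was only partly borne out by marker genes. Gabra6, a GABA receptor gene typical of granule cells, was within the background at 1.84 and 1.97, and so was Pcp2, a Purkinje cell gene, at 3.18 and 3.69. Of 14 genes listed as typical of cerebellum 7 were over the bound on at least 1 array, and of 12 listed as forebrain genes 11 were. Cerebellum is therefore used here as a label only.

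Most chemokine genes were within the background on both arrays. Of the 51, 10 were over the bound on both arrays, 3 on the cuprizone array only, 1 on the control array only and 37 on neither. Thus 14 were over the bound on at least 1 array, where 45.5% of all genes were, and 10 on both, where 40.7% of all genes were. Ligands made up 12 of the 14 and receptors 2. The genes nearest the bound were Ccl27a, just over it at 4.78 and 4.77, Cxcl13, just within on the control array at 4.58, and Ccl28, just within on the cuprizone array at 4.59. Only Cxcl14, Cx3cl1 and Cxcl12 were above the highest olfactory receptor gene on both arrays, and no member was below the lowest.

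**Figure D1:**
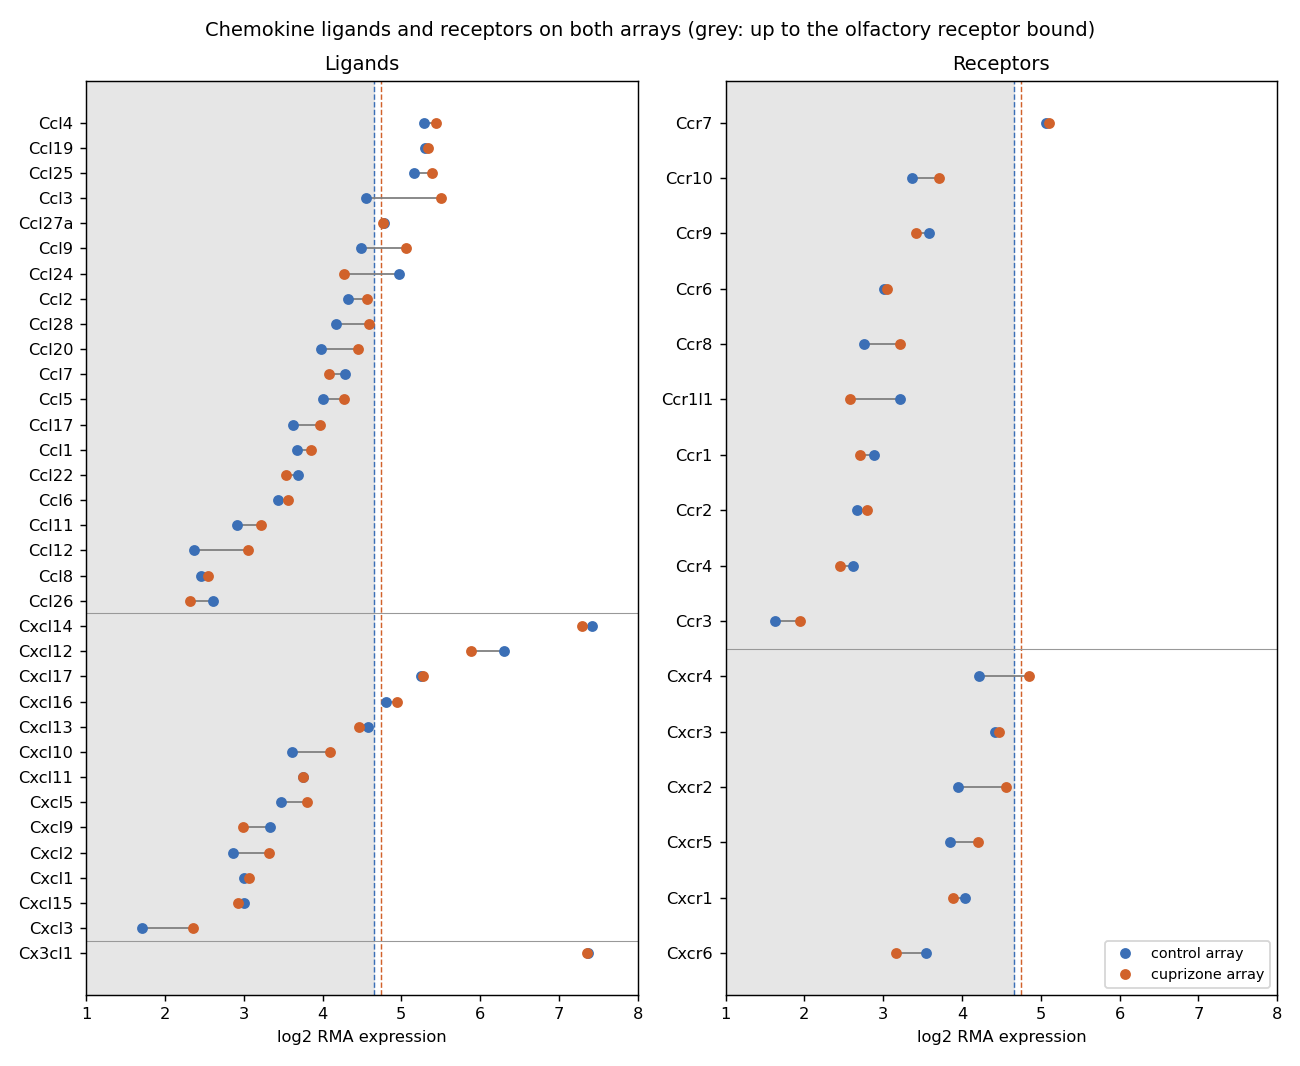
Log2 RMA expression (horizontal axis) of the 34 ligands and of the receptors that are reported on the control array (blue) and the cuprizone array (orange), with a grey line joining both values of a gene, thin lines between families and dashed lines at the olfactory receptor bound of each array. Most genes lie in the grey background zone on both arrays, and Ccl3, Ccl9, Cxcr4 and Ccl24 cross its edge.

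Cx3cl1, the membrane-tethered chemokine through which neurons signal to microglia, had nearly equal levels. It was at 7.37 and 7.35, a difference of -0.01. Its receptor Cx3cr1, a microglial gene outside the symbol rule, was at 6.59 and 7.08, a difference of 0.50. So the ligand's values lay together while the receptor's value was higher on the cuprizone array. The 795 genes whose mean level was within 0.25 of that of Cx3cl1 had differences with a central 95% from -0.37 to 0.30, which holds the value of the ligand; for Cx3cr1, genes of like level had a central 95% from -0.39 to 0.32, which does not hold that of the receptor. Neuronal genes, among whose cells Cx3cl1 is made, had 13 of 13 over the bound, with 4 higher, 9 lower and a median of -0.10. Cxcl14, a CXC ligand found in some interneurons, was at 7.42 and 7.30, a difference of -0.13.

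Cxcl12, the homeostatic ligand of Cxcr4, was lower on the cuprizone array, and Cxcr4 was higher. Cxcl12 was at 6.30 and 5.88, both over the bound, a difference of -0.42 or 1.34-fold lower. Of the 2341 genes of like level the central 95% ran from -0.43 to 0.40, so Cxcl12 lay just inside its lower edge. Cxcr4, the receptor that holds and recruits leukocytes and progenitor cells, was within the background at 4.22 on the control array and over the bound at 4.84 on the cuprizone array, at least 0.19 higher (the measured difference was 0.62). Ackr3, the scavenger receptor that removes Cxcl12 and lies outside the symbol rule, was at 5.67 and 5.36, a difference of -0.30. Genes of endothelial and mural cells, among which Cxcl12 is made, had 18 of 20 over the bound on at least 1 array, with 15 lower, 3 higher and a median difference of -0.21, against -0.02 for all 14075 genes over the bound on at least 1 array. Their mean levels were 5.92 and 5.76. Cldn5, a tight junction protein of vessels, was at 5.78 and 5.19, and Cdh5, an endothelial cadherin, at 6.90 and 6.45. Mural cell genes of that list included Pdgfrb (6.63 and 6.60), Rgs5 (7.81 and 7.82) and Acta2 (6.87 and 6.58). Of 12 meningeal and perivascular fibroblast genes 10 were over the bound, with 9 higher, 1 lower and a median of 0.20. Scaled on spiked control RNAs (hybridization, then poly-A), the fibroblast median became -0.06 and -0.18, and the endothelial and mural median -0.47 and -0.58. The median of all genes was then -0.26 and -0.38. The part of any of these cells in the Cxcl12 difference was not tested.

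Ccl3, an inflammatory ligand that activated microglia secrete, had the largest difference of the 51 genes. It was within the background at 4.55 on the control array and over the bound at 5.51 on the cuprizone array. On the deposited scale Ccl3 was thus at least 0.85 higher, which is at least 1.80-fold. The measured difference was 0.96, with the control value not above background. Genes of like level, 3229 in number, had a central 95% from -0.51 to 0.52. Ccl4, its close relative and neighbour, was over the bound on both arrays at 5.29 and 5.44, a difference of only 0.15. These genes lie 13206 bases apart, Ccl3 at chr11:83647843-83649378 on the minus strand and Ccl4 at chr11:83662584-83664683 on the plus strand, in the coordinates of the array annotation. Ccl9, a myeloid ligand of Ccr1 in the same cluster at chr11:83572917-83578636, was within the background at 4.49 on the control array and over the bound at 5.05 on the cuprizone array, at least 0.39 higher (measured difference 0.57). Ccl5, a T cell and glial ligand, was within the background at 4.01 and 4.27, and Ccl6, another myeloid ligand, at 3.43 and 3.57.

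Neighbouring CC ligands on chromosome 11 mostly had small positive differences as deposited. The 11 CC ligands between 82035571 and 83664683 had 10 positive and 1 negative difference, with a median of 0.24, where 48.1% of all genes and 52.2% of those within the background were positive. When scaled on the hybridization spike-ins 4 of the 11 were positive, and on the poly-A spike-ins 3 were. The median of all genes was then -0.26 and -0.38, so the places of the 11 ligands among all genes did not move. Of these ligands 8 were within the background on both arrays, so most of these signs rest on values near background. Ccl2, the main monocyte attractant, was at 4.32 and 4.56. Ccl7, another Ccr2 ligand, was at 4.28 and 4.08, the negative value of the cluster. Ccl12, the mouse Ccr2 ligand next to them, was at 2.37 and 3.06, a difference of 0.69 with both values inside the background, so no fold is given. The 9 CXC ligands on chromosome 5 were all within the background, with 5 positive, 3 negative and 1 zero difference; Cxcl11 was listed at 3.75 on both arrays.

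Ccl24, an eosinophil attractant that binds Ccr3, was lower on the cuprizone array, by an amount that the background leaves uncertain. It was over the bound at 4.97 on the control array and within the background at 4.27 on the cuprizone array, at least 0.23 lower (measured difference -0.70). Its probe set lies at chr5:135569937-135573043. The other CC ligands over the bound differed little. Ccl25, a ligand of thymus and gut, was at 5.16 and 5.40, a difference of 0.24. Ccl19, a lymph node ligand of Ccr7, was at 5.30 and 5.33; its probe set is marked as cross-hybridising and is placed on an unlocalised scaffold of chromosome 4, so near-identical copies of the gene may share its signal. Ccl27a, best known in skin, was at 4.78 and 4.77.

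The remaining CXC ligands were split between a pair over the bound and a larger group within the background. Cxcl16, a transmembrane ligand of Cxcr6, was at 4.80 and 4.95, a difference of 0.14, and Cxcl17, a mucosal ligand, at 5.25 and 5.27. Both were over the bound on both arrays. Cxcl10, an interferon-induced ligand of Cxcr3, was within the background at 3.61 and 4.09, a difference of 0.48. Cxcl13, the B cell attractant, was at 4.58 and 4.46. The neutrophil attractants of chromosome 5 were also within the background: Cxcl1 was at 3.01 and 3.06, and Cxcl3 at 1.71 and 2.35, a difference of 0.64. None of these last 4 genes left the background on either array.

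Among receptors, Ccr7 and Cxcr4 alone were over the bound on any array. Ccr7, which guides dendritic cells and T cells to lymph nodes, was at 5.06 and 5.11, a difference of 0.05. Ccr2, the monocyte receptor, was within the background at 2.67 and 2.79. Ccr1, which Ccl3 and Ccl9 bind, was at 2.88 and 2.70. Both values of Ccr2 and of Ccr1 were thus within the background. Cxcr3, the receptor of activated T cells, was at 4.42 and 4.47. Cxcr2, the neutrophil receptor that oligodendrocyte precursors also carry, was within the background at 3.95 and 4.56, a difference of 0.60, and Ccr1l1, a Ccr1-like gene, at 3.22 and 2.57, a difference of -0.64. All 8 CC receptors on chromosome 9 were within the background on both arrays, with 4 positive and 4 negative differences. A further 24 of the 51 genes, ligands and receptors together, were within the background on both arrays, with levels from 1.63 to 4.59 and differences from -0.39 for Cxcr6 to 0.46 for Ccl20.

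Few pairs of a ligand and its receptor could be over the bound together, since only Ccr7 and Cxcr4 among the receptors of the set were over it. Of 30 textbook pairs within the set, drawn up after the values had been seen, 1 had both genes over the control bound and 2 had both over the cuprizone bound: Ccl19 with Ccr7 on both, and Cxcl12 with Cxcr4 on the cuprizone array. With Cx3cr1 and Ackr3 added as receptors, Cx3cl1 with Cx3cr1 and Cxcl12 with Ackr3 were over the bound on both arrays.

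Past a threshold of 1.5-fold, a log2 difference of 0.585, few chemokine genes stood out. Among the 14 over the bound on at least 1 array, 2 were higher (Ccl3 and Cxcr4), where 1.36% of all genes under the same filter were, and 1 was lower (Ccl24), where 1.19% were. All 3 passed the filter through the array on which they were higher, so their number shows nothing by itself. Among the 10 genes over the bound on both arrays 0 were 1.5-fold higher and 0 lower, where 0.731% and 0.667% of all such genes were. With dim values raised to the bound, Ccl3 was the 1 gene left on the higher side, where 0.774% of all genes were, and 0 were left on the lower side, where 0.682% were. With no filter 5 of the 51 were past the threshold upward and 2 downward, against 2.85% and 2% of all genes. Measured against genes of like level, 5 of the 51 (Ccl3, Ccl9, Cxcr4, Ccl24 and Cxcr2) lay outside the central 95% by their measured difference. That share is larger than the 5.06% of all genes that did, and the gap was not tested. Each of these genes had at least 1 value within the background. By the bounded differences Ccl3 (0.85) still lay outside it, whereas Ccl9 (0.39), Cxcr4 (0.19) and Ccl24 (-0.23) lay inside, and Cxcr2 has no bound since both its values were within the background. The median difference of the 14 was 0.04, against -0.02 for all genes under that filter; of the 37 within the background, 24 were positive, 12 negative and 1 zero, and their median of 0.13 stood beside 0.03 for all genes within the background and 0.04 for the olfactory receptor genes.

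**Figure D2:**
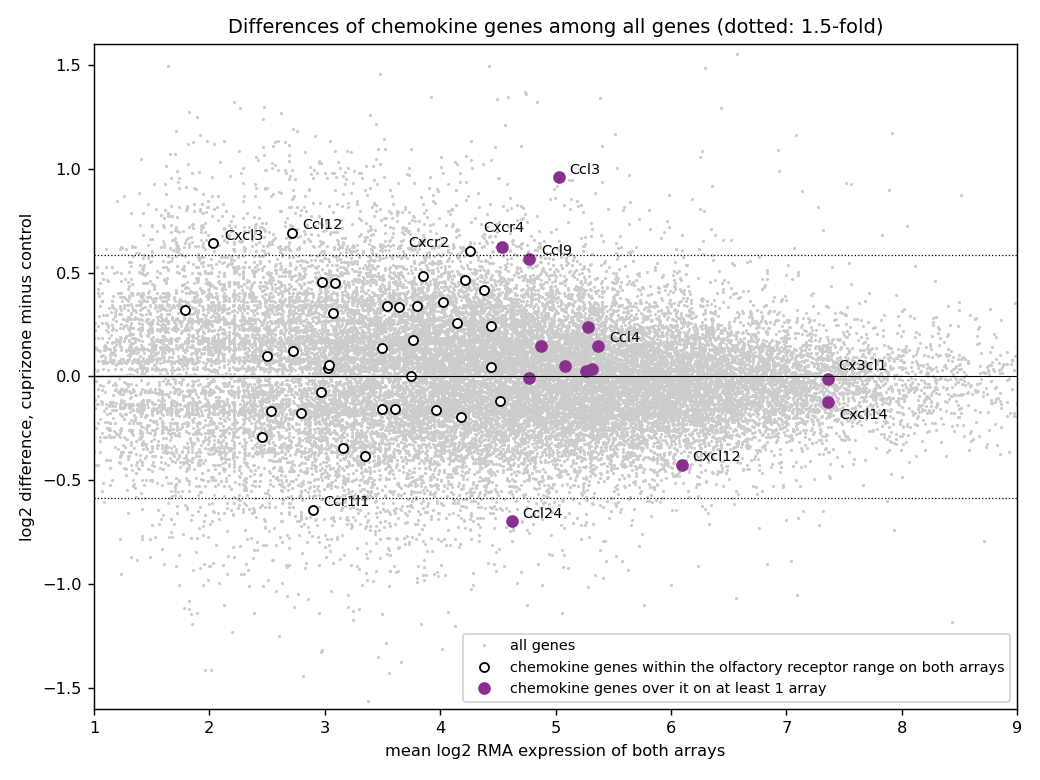
Log2 difference, cuprizone minus control, against mean log2 RMA expression for all genes with a mean under 9 and a difference within 1.6 (grey points) and for the chemokine genes reported, filled where over the olfactory receptor bound on at least 1 array and open otherwise; dotted lines mark 1.5-fold. Ccl3 stands at 0.96 among genes of like level, whereas Cx3cl1 and Cxcl14 lie near 0.

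How the arrays are scaled matters for the sign of small differences. Spiked control RNAs read higher on the cuprizone array, by a median of 0.26 for 18 hybridization spike-in probe sets and 0.38 for 39 poly-A spike-in probe sets, and scaling on them lowers every difference, and the median of all genes, by that amount. Ccl3 was then 0.70 and 0.582, Cxcr4 0.36 and 0.25, and Ccl9 0.30 and 0.19. Cxcr4 thus fell under 1.5-fold with both, and Ccl3 fell just under it with the poly-A spike-ins. Cxcl12 was -0.69 and -0.80, past 1.5-fold, and Ccl24 -0.96 and -1.07. Ccl25, Ccl4, Cxcl16, Ccr7, Ccl19 and Cxcl17 turned negative under both. Relative to all genes, whose median moves along, their places did not move.

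**Figure D3:**
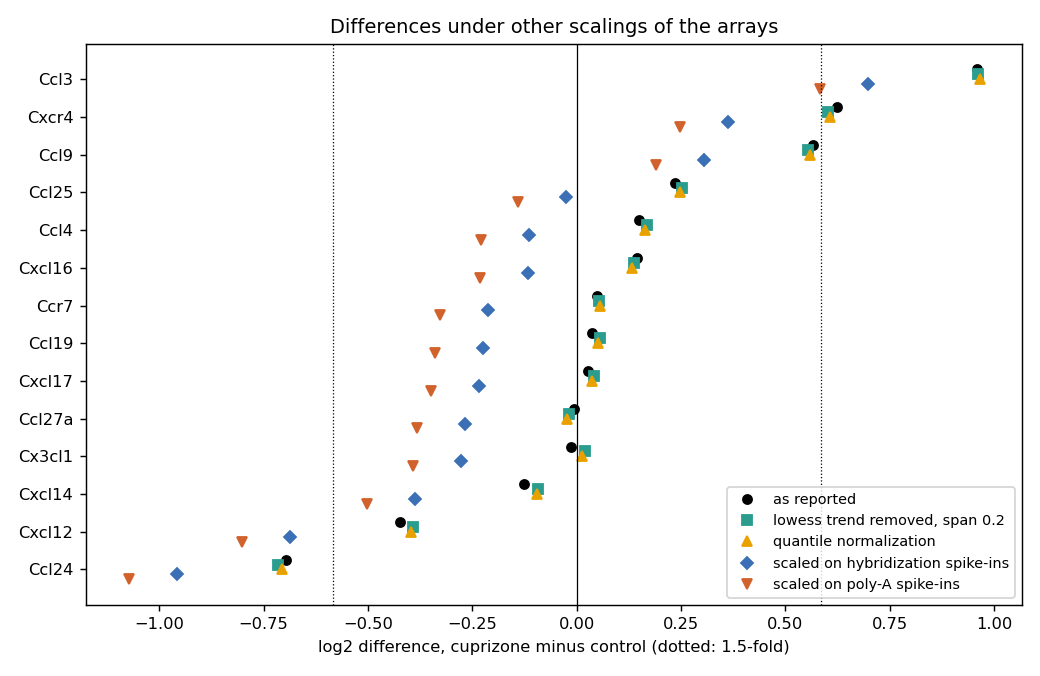
Log2 difference, cuprizone minus control, of the 14 chemokine genes over the bound on at least 1 array, as deposited and under 4 other scalings (symbols); dotted lines mark 1.5-fold. Ccl3, Cxcr4 and Ccl9 stay above 0 and Ccl24, Cxcl12, Cxcl14 and Ccl27a below 0 under every scaling drawn. Cx3cl1 lies near 0 except under the hybridization and poly-A spike-in scalings, at -0.28 and -0.39. Ccl25, Ccl4, Cxcl16, Ccr7, Ccl19 and Cxcl17 turn negative under both of these.

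The promoters of Ccl3, Cxcl12 and Cx3cl1 are shown because these genes had the largest positive difference, the largest negative difference among genes over the bound on both arrays, and nearly equal levels. Each is the 250 bases before the gene's start, 5′ to 3′ on the gene's strand, from RefSeq on GRCm38.p6: chr11:83649379-83649628 (minus strand), chr6:117168285-117168534 (plus strand) and chr8:94771930-94772179 (plus strand). Capitals mark TATAA, the core of a TATA box, and GGGCGG, a GC box, on either strand.

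Ccl3: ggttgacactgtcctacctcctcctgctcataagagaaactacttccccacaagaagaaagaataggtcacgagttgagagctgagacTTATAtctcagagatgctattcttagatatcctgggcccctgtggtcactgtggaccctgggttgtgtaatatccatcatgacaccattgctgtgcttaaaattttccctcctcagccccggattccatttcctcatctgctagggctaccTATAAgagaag

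Cxcl12: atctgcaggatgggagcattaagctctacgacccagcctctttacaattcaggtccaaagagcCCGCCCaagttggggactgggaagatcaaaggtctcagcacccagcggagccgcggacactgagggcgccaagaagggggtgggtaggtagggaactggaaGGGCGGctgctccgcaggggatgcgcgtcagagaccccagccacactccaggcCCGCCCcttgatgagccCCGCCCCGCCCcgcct

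Cx3cl1: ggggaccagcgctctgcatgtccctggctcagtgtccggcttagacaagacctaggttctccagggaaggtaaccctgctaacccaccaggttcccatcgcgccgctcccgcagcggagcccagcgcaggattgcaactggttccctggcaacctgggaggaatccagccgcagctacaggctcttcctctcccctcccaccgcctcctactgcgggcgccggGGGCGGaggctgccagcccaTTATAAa

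The Ccl3 promoter held TATAA 2 times, once per strand, no GGGCGG and 2 CpG. Cxcl12 had 5 matches of GGGCGG, of which some overlap, no TATAA and 14 CpG; Cx3cl1 had TATAA 2 times at 1 overlapping place, once per strand, 1 GGGCGG and 14 CpG. The promoter table matched 36 of the 51 genes. Counting both strands and the first promoter of each gene by position, TATAA was in 38.9% of these, against 23.4% of 27025 genes in the table, GGGCGG in 16.7% against 32.7%, and the NF-kB consensus, the binding motif of a factor of inflammatory genes, in 25% against 7.07%. The 9 genes with a promoter that were over the bound on at least 1 array had a median of 14 CpG, and the 27 within the background a median of 3, beside 5 for all genes. The NF-kB consensus was in 1 of these 9 (11.1%) and in 8 of these 27 (29.6%). The promoters of Ccl3, Cxcl12 and Cx3cl1 had no match of it. These are matches of letters and not sites.

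Other genes of the chemokine system that were over the bound had differences under 1.5-fold. Of 19 genes outside the symbol rule (the atypical receptors, Xcl1 and Xcr1, Pf4, Ppbp, Ccrl2, the Cmtm family and others), 10 were over the bound on at least 1 array, with 6 higher, 4 lower and a median of 0.01. Ccrl2, a scavenger-like receptor, was within the background at 4.28 and 4.39, as was Pf4, a platelet chemokine, at 3.40 and 3.63. Of 37 genes that act below chemokine receptors 31 were over the bound, with 16 higher, 15 lower, 0 past 1.5-fold in either direction and a median of 0.01. Among them Rgs16, which shortens G protein signals, was at 5.23 and 4.83, and Grk5, a receptor kinase, at 5.08 and, within the background, 4.63, so at least 0.34 lower.

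Genes for proteases and inducers of chemokines were mixed. Of 15 processing enzymes 9 were over the bound, 6 higher and 3 lower, with a median of 0.13 that became -0.13 and -0.25 under the spike-in scalings. Anpep, a membrane peptidase, was at 5.50 and 5.10, a difference of -0.40. At least 1.5-fold higher were 2 of the 9: Ctss, a lysosomal protease of microglia, was at 6.50 and 7.66, and Ctsd, another lysosomal protease, at 7.44 and 8.34. Of 21 inducers and their signal genes 9 were over the bound, 7 of them higher, with a median of 0.25 that became -0.01 and -0.13 under the spike-in scalings. Nfkbia, the NF-kB inhibitor that NF-kB itself induces, was at 5.35 and 5.94. Irf8, a myeloid transcription factor, was within the background at 4.25 and over the bound at 4.86, at least 0.20 higher. The cytokine genes Tnf (4.03 and 4.27), Il1b (2.63 and 3.26) and Ifng (3.63 and 3.98) were within the background on both arrays.

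Markers of cells that make or follow chemokines are given beside these values. Of 23 microglia and macrophage genes 21 were over the bound, with 18 higher, 3 lower and 13 at least 1.5-fold higher. Their median of 0.71 became 0.45 and 0.33 under the spike-in scalings, both under 1.5-fold. The mean levels of the 23 were 5.29 and 5.96. Cd68, a lysosomal protein of phagocytes, was at 5.79 and 7.34 and P2ry12, a marker of resting microglia, at 6.18 and 6.29. Tmem119 (4.82 and 4.66) and Aif1 (4.49 and 4.74), both microglial, were each within the background on 1 array. Ccl3, Ccl9, Cxcr4 and Cx3cr1 were higher on the same array as this list, and its part in their values was not tested. Of 14 astrocyte genes 13 were over the bound, with 9 higher, 4 lower and a median of 0.14 that became -0.12 and -0.23 under the spike-in scalings. Few genes of blood leukocytes were over the bound on any array: 1 of 19 lymphocyte genes and 2 of 15 monocyte and neutrophil genes. Of 5 erythroid genes 3 were over it, with the globin genes Hba-a2 at 9.82 and 10.03 and Hba-a1 at 6.43 and 6.54, and with Hbb-bt, a beta globin, within the background at 4.02 and over the bound at 4.98, at least 0.32 higher. Cd3e, a T cell receptor chain, was within the background at 4.09 and 3.99. Mature oligodendrocyte genes, the cells that cuprizone kills, had 13 of 13 over the bound and lower on the cuprizone array, 12 of them by at least 1.5-fold.

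**Figure D4:**
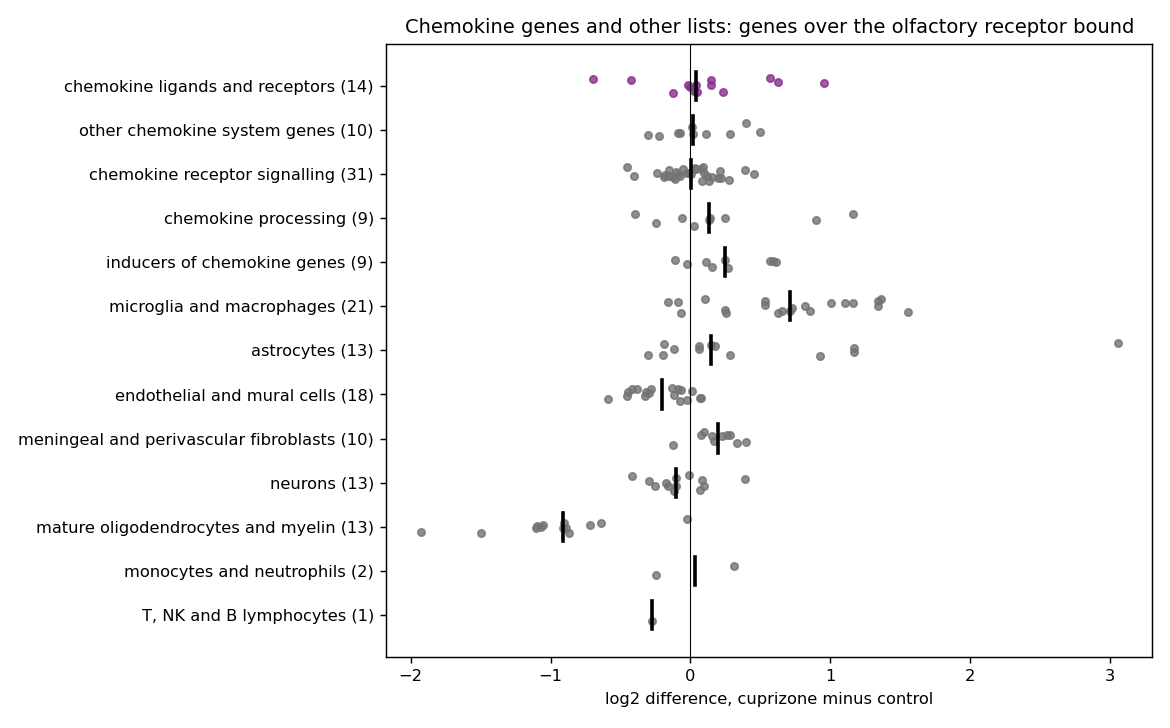
Log2 difference, cuprizone minus control, of single genes (points, spread vertically at random) over the olfactory receptor bound on at least 1 array, with the median of each list (bar) and the number of genes in brackets. Chemokine genes centre at 0.04 between Ccl24 at -0.70 and Ccl3 at 0.96, while microglia and macrophage genes centre at 0.71 and mature oligodendrocyte genes at -0.91.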

How the data were processed

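RNA of 1 control and 1 cuprizone mouse was hybridised to Affymetrix whole-transcript arrays (Mouse Gene 2.0 ST). Per the submitters' processing notes, the authors used RMA and Affymetrix Power Tools, with no version named, and deposited log2 expression of each probe set. Because RMA gives both arrays the same distribution of signals, a shift in total RNA is removed. The deposited log2 values in the supplementary table and the series matrix cover 41345 probe sets and differ by no more than 5e-05, with medians of 4.33 and 4.36 in both. No source used here gives the genome build; 50 of the 51 annotated positions overlap the gene with the same ID in RefSeq on GRCm38.p6, and Ccl19 does not.

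A symbol stood beside 31873 probe sets. The 31872 with a single symbol gave 30920 genes, and the probe set with the highest mean of both arrays was used for each. The members, gene lists and tests were chosen with earlier results of these data known. Differences are cuprizone minus control with no further centring (median 0 over all genes). With 1 array per group nothing was tested, and the number of arrays limits the precision. Named were all members over the bound or past 1.5-fold, a fixed set of well-known members, and up to 4 genes of each list with the largest differences, of which those that repeated a point were left out; 1 receptor is counted but not reported here; genes of like level are those within 0.25 in mean level. The counting code was checked on simulated data without noise, with shifts planted only in genes well above the bound. That check says nothing about genes near the bound. Alternatives covered scaling, probe set choice, bound, filter and threshold. Python 3.11.15, pandas 2.3.3, numpy 2.4.6 and statsmodels 0.14.6 were used.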

Additional observations from a re-analysis of the deposited data

How the results depend on the processing

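As reported, 14 chemokine genes were over the olfactory receptor bound on at least 1 array and 10 on both, 2 were at least 1.5-fold higher and 1 lower, and the median difference was 0.04. A median was taken to move when it shifted by 0.1 or more, since there is no replicate spread. Scaling on hybridization spike-ins gave 1 higher, 2 lower and a median of -0.22, and scaling on poly-A spike-ins 0 higher, 2 lower and a median of -0.33, with medians of all genes at -0.26 and -0.38. A bound at percentile 90 of olfactory receptor genes gave 29 genes on at least 1 array, 24 on both and a median of 0.15. A bound at percentile 99, which is 5.07 for control and 5.01 for cuprizone, gave 10 and 7. Cxcr4 (4.84 on the cuprizone array) and Ccl24 (4.97 on the control array) were then within the background. The highest olfactory receptor gene as bound gave 3 and 3. With no filter 5 were higher and 2 lower, with a 2-fold threshold 0 and 0, and with dim values raised to the bound 1 and 0. Genes over the bound on both arrays, a setting chosen after seeing the data, gave 0 and 0. Of 27 named members 14 kept their sign under every alternative that recomputed differences, and no difference past 1.5-fold reversed. Each member has 1 probe set, so averaging probe sets could alter only the olfactory receptor bound. No paired analysis was possible because each group had 1 array. Signal near background limits the 37 genes within it.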

Other observations

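Copies of lymph node chemokines also stood on the array under predicted names. Gm13304, which RefSeq lists with Ccl21 synonyms, was at 5.26 (control) and 5.55 (cuprizone), a difference of 0.29. Gm2023, listed with the synonym Ccl19, was within the olfactory receptor background at 3.83 and 3.53. Both probe sets are marked as cross-hybridising, so their signal cannot be assigned to a single copy. Of 60 RefSeq genes whose current symbol fits the chemokine pattern, 9 were not among the 51, and 8 of those belong to the Ccl19, Ccl21 and Ccl27 families. Ackr1, the scavenger receptor of venules and red cells, was at 5.97 and 5.98, and Ackr2, a scavenger of inflammatory CC ligands, at 4.99 and 4.90.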
